A study of Caenorhabditis elegans with 23 samples.

Results

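The question addressed here is whether the transcript response of Caenorhabditis elegans to ash-2 RNAi on day 8 of life differed between worms with and without a normal germline. The members are the 11 day 8 arrays of a series of 23 arrays, and every one of the 22548 probe sets was tested. The measure is a difference of differences. The change with ash-2 RNAi in glp-1 worms was subtracted from the change with ash-2 RNAi in wild type (WT) worms, so this difference runs as WT minus glp-1. It is positive where the WT change lies above the glp-1 change, and such probe sets are called higher below. It is negative where the WT change lies below the glp-1 change, and these are called lower. All values are on the log2 scale, on which 1 unit is a 2-fold difference.

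The 4 day 8 groups were glp-1(e2141ts) worms with ash-2 RNAi (3 arrays), glp-1(e2141ts) worms with the empty vector (EV, 3 arrays), WT worms of strain N2 with ash-2 RNAi (3 arrays) and WT worms with EV (2 arrays). The submitters left out a WT EV array for its quality, so WT EV rests on 2 arrays throughout. Growth at 20 degrees is given for all groups, and a restrictive temperature for the glp-1 worms is not stated. RNA came from whole worms, and nothing in the labels says whether the arrays of a group came from separate cultures, so p-values measure only the spread between these arrays, which may be technical.

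ASH-2 is a subunit of the COMPASS-type complexes that trimethylate histone H3 at lysine 4, a mark found at the start of active genes. GLP-1 is the Notch receptor through which the somatic gonad keeps germline stem cells dividing, and worms that lose its function early make few germ cells. In C. elegans, loss of germline stem cells is known to raise fat metabolism and stress defence genes in the intestine, in part through the transcription factors DAF-16 and NHR-80.

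The genotype labels were borne out by marker genes. All 10 germline markers were lower on each glp-1 array than on each WT array, and their mean level was 5.46 to 5.58 on glp-1 ash-2 RNAi arrays, 4.93 to 5.08 on glp-1 EV arrays, 10.67 to 10.95 on WT ash-2 RNAi arrays and 10.39 to 10.93 on WT EV arrays. The 4 measured intestine markers ran the other way, at 9.87 to 10.09, 10.38 to 10.62, 7.13 to 7.31 and 7.08 to 7.56 in the same order of groups. This direction was not particular to intestine. Under EV, 4 of 4 body wall muscle markers and 3 of 3 somatic gonad markers were also higher in glp-1 (limma adjusted p under 0.05). So were 2 of 3 epidermis markers and 1 of 4 neuron markers. The part of these marker levels in the results below was not tested, and in whole worms fewer cells of a type and less RNA per cell cannot be told apart. Array medians lay between 4.89 and 5.01. Array 3 of glp-1 ash-2 RNAi had the lowest mean correlation with its group, 0.983.

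The response differed between genotypes at 902 probe sets, or 4.0% of all tested (limma, Benjamini-Hochberg adjusted p under 0.05). Of these, 525 (2.33%) were higher and 377 (1.67%) were lower, and they named 808 genes. The difference was at least 2-fold at 652 of them and at least 8-fold at 18. On each of the 902, all 6 differences between a WT ash-2 RNAi and a WT EV array lay on one side of all 9 such differences in glp-1, which was so for 14.5% of all probe sets. The split between directions depends on scaling and on 1 of the 2 WT EV arrays. Without WT EV 1 the calls were 356 higher and 427 lower. With each array centred on muscle and neuron genes, 152 of 648 called probe sets were higher and 496 lower, and the median difference over all probe sets moved to -0.38, against -0.03 as deposited. The count is also sensitive to single WT arrays. It was 385 without WT EV 2, 451 without WT ash-2 RNAi 1, 410 without WT ash-2 RNAi 2 and 550 without WT ash-2 RNAi 3.

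At 736 of the 902 called probe sets the change was larger in glp-1, and at 166 it was larger in WT. Within glp-1, 3339 probe sets (14.8%) changed with ash-2 RNAi, 1618 upward (7.18%) and 1721 downward (7.63%). Within WT 331 (1.47%) did, 130 upward (0.577%) and 201 downward (0.891%). Across all probe sets the SD of the change was 0.487 in glp-1 and 0.277 in WT. The 2 counts are not on an equal footing. All groups share 1 estimate of spread, while the residual SD was 0.19 to 0.27 on glp-1 arrays and 0.11 to 0.17 on WT arrays. Noisier arrays also widen the SD of a change, and WT EV has only 2 arrays. With array weights the counts were 3220 in glp-1 and 548 in WT. Of the 902 called probe sets, 448 fell in glp-1 and passed no test in WT, while 282 rose in glp-1 and passed no test in WT. Another 60 fell and 31 rose in WT alone, 25 changed the same way in both genotypes, 19 changed in opposite directions, and 37 passed neither test of one genotype. At 262 of the 902, both WT group means lay below 4.95, the median over the day 8 arrays. These were 183 of the higher calls and 79 of the lower calls. A fall in WT could hardly show at these probe sets. The gap between genotypes was smaller under ash-2 RNAi than under EV at 681 of the 902, against 60% of all probe sets. This held for 492 of the 525 higher calls and for 189 of the 377 lower calls. The median size of the gap over the 902 was 1.45 under ash-2 RNAi and 2.31 under EV.

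**Figure D1:**
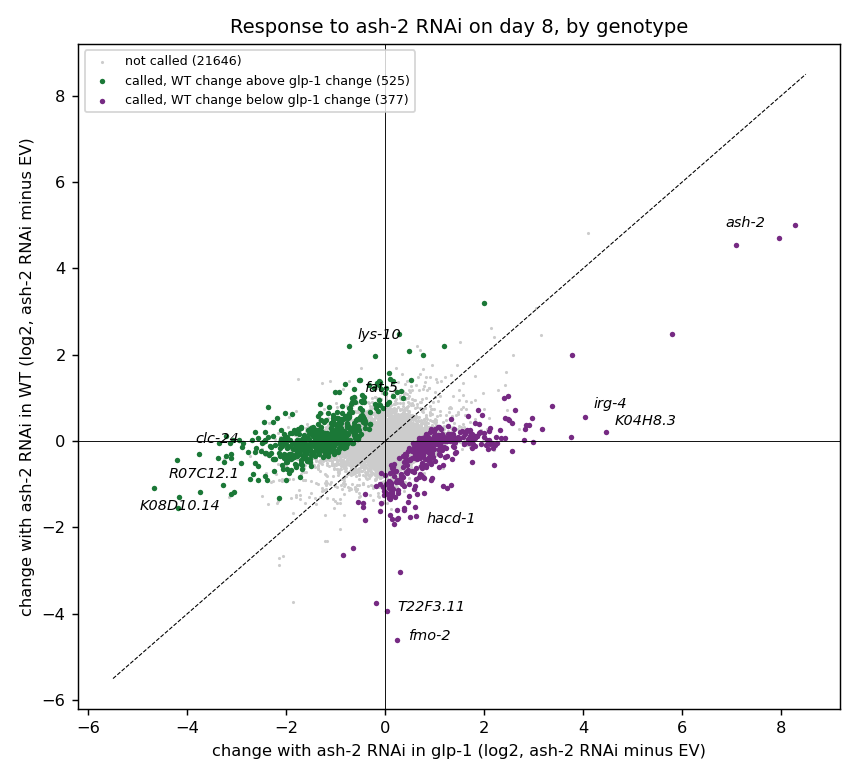
Change with ash-2 RNAi in glp-1 (horizontal axis) and in WT (vertical axis), both as log2 ash-2 RNAi minus EV, with 1 point per probe set and the dashed line marking equal change. Green points are the 525 called probe sets with the WT change above the glp-1 change, purple points the 377 with it below, and most of both lie along the horizontal axis.

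The targeted gene itself separated the labelled treatments. A shared probe set of ash-2 read 14.74, 14.87 and 14.86 on glp-1 ash-2 RNAi arrays, 6.52, 6.93 and 7.11 on glp-1 EV arrays, 13.22, 13.15 and 12.44 on WT ash-2 RNAi arrays, and 8.67 and 7.80 on WT EV arrays. Signal was thus higher with ash-2 RNAi in both genotypes, against the direction of a knockdown, and the other 2 shared probe sets ran the same way. Their source was not tested. The ash-2 probe set that is not shared read 4.94, 4.94 and 4.90 with glp-1 ash-2 RNAi, 5.58, 5.29 and 5.12 with glp-1 EV, 5.14, 4.93 and 5.14 with WT ash-2 RNAi, and 7.07 and 6.71 with WT EV. Here the WT EV arrays stood alone above all others. It fell by 1.82 in WT (adjusted p = 0.000235) and differed by -0.40 in glp-1 (adjusted p = 0.0786), a difference of -1.42 ± 0.21 (SE) between the genotypes in limma's fit (adjusted p = 0.00499). The glp-1 EV mean of 5.33 was already near the median of 4.95 over the day 8 arrays, which left little room for a fall. With ash-2 RNAi the means were alike, 4.92 in glp-1 and 5.07 in WT, so the difference does not measure how well the knockdown worked.

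Called probe sets were sorted by whether 1 group stood apart. A group is said to stand apart where its mean lies farther from the nearest other group mean than the other 3 group means lie from each other. At 445 of the 902 probe sets no group did so. The largest class with a group apart was glp-1 EV above the rest, at 246 probe sets, whatever the level of the other 3 groups. An example is clc-24, a claudin-like gene, at 5.04, 5.17 and 4.32 in glp-1 ash-2 RNAi worms, 8.26, 8.79 and 8.80 in glp-1 EV worms, 4.38, 4.37 and 4.35 in WT ash-2 RNAi worms, and 4.74 and 4.56 in WT EV worms. The glp-1 EV arrays did not overlap any other group, and the difference was 3.48 ± 0.32 (adjusted p = 0.000491 in limma). The gene nlp-25, of the neuropeptide-like family that holds antimicrobial peptides of the epidermis, followed the same shape. It stood at 4.64, 4.87 and 4.07 with glp-1 ash-2 RNAi, 7.84, 7.01 and 7.94 with glp-1 EV, 4.27, 4.22 and 4.61 with WT ash-2 RNAi, and 3.98 and 4.69 with WT EV. Only glp-1 EV worms held it well above the array median of 4.95, and the difference was 3.10 ± 0.43 (limma adjusted p = 0.00318).

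Other transcripts of that shape were among the largest higher differences. They include K08D10.14 (3.59 ± 0.54), F57H12.6 (3.33 ± 0.50), F18E3.11 (3.31 ± 0.50), T16G1.6 (3.14 ± 0.35), ugt-9 (3.08 ± 0.46) and F41C6.4 (2.99 ± 0.30), the ugt genes encoding UDP-glucuronosyltransferases. R07C12.1 had the largest difference of all on the higher side, 3.77 ± 0.64, and lost its call without WT EV 2. For these transcripts the change with ash-2 RNAi in WT lay between -1.09 and 0.78 and passed no test. For R07C12.1, F57H12.6 and F41C6.4 both WT group means lay below the array median of 4.95, so a fall in WT could hardly show. For F18E3.11 and ugt-9 both WT group means lay above it. The gene drd-10, at 2.99 ± 0.72 with limma's adjusted p of 0.0453, was less stable, and its call was lost without any one of 10 of the 11 arrays.

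At 106 probe sets glp-1 ash-2 RNAi stood apart above the rest. K04H8.3 read 9.17, 9.33 and 9.19 in glp-1 ash-2 RNAi worms, 4.55, 4.78 and 5.00 in glp-1 EV worms, 4.16, 4.33 and 4.27 in WT ash-2 RNAi worms, and 3.94 and 4.13 in WT EV worms. No array of another group came near the glp-1 ash-2 RNAi arrays, and the difference was -4.24 ± 0.19 (limma adjusted p = 4.41e-06). The infection response gene irg-4 stood at 9.07, 10.05 and 9.54 with glp-1 ash-2 RNAi, 4.76, 5.23 and 6.59 with glp-1 EV, 5.203, 4.794 and 4.998 with WT ash-2 RNAi, and 4.54 and 4.33 with WT EV. Its difference was -3.47 ± 0.59 (limma adjusted p = 0.00956). In the same class were the trypsin-like protease gene try-9 (-2.90 ± 0.19), B0507.3 (-2.78 ± 0.30), the C-type lectin genes clec-265 (-2.56 ± 0.45) and clec-4 (-2.56 ± 0.18), and the cytochrome P450 gene cyp-35C1 (-2.54 ± 0.27). Not all were near the array median in glp-1 EV worms, where clec-265 averaged 6.30. A shared probe set of cyp-35C1 averaged 9.62 in glp-1 ash-2 RNAi worms and 7.74 in glp-1 EV worms, with a smaller difference of -1.14 ± 0.27 and no group apart.

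At 42 probe sets WT EV stood apart above the rest. The flavin monooxygenase gene fmo-2 had the largest difference on day 8. It read 5.36, 4.68 and 5.01 in glp-1 ash-2 RNAi worms, 4.56, 5.11 and 4.68 in glp-1 EV worms, 4.92, 4.99 and 5.25 in WT ash-2 RNAi worms, and 9.66 and 9.66 in WT EV worms. Both WT EV arrays stood far above the other 9, whose ranges overlapped, and the difference was -4.84 ± 0.28 (limma adjusted p = 2.3e-05). T22F3.11 had the same form, at 3.91, 4.07 and 4.23 with glp-1 ash-2 RNAi, 4.25, 3.81 and 4.06 with glp-1 EV, 4.57, 4.22 and 4.21 with WT ash-2 RNAi, and 8.20 and 8.36 with WT EV. Its difference was -3.98 ± 0.22 (limma adjusted p = 2.1e-05), and that of C23G10.11 was -3.34 ± 0.35. All 3 kept their calls whichever array was left out, although the high group has 2 arrays.

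At a further 37 probe sets glp-1 EV stood apart below the rest. H04M03.3 read 7.92, 8.45 and 8.33 with glp-1 ash-2 RNAi, 4.81, 5.41 and 5.54 with glp-1 EV, 8.95, 8.82 and 8.86 with WT ash-2 RNAi, and 8.73 and 9.06 with WT EV. The glp-1 ash-2 RNAi arrays lay just below the WT arrays and far above the glp-1 EV arrays, and the difference was -2.999 ± 0.295 (limma adjusted p = 0.000706). The cuticle collagen gene dpy-17 had this shape too (-2.75 ± 0.34), as did atgl-1, which encodes the adipose triglyceride lipase (-1.67 ± 0.30).

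**Figure D2:**
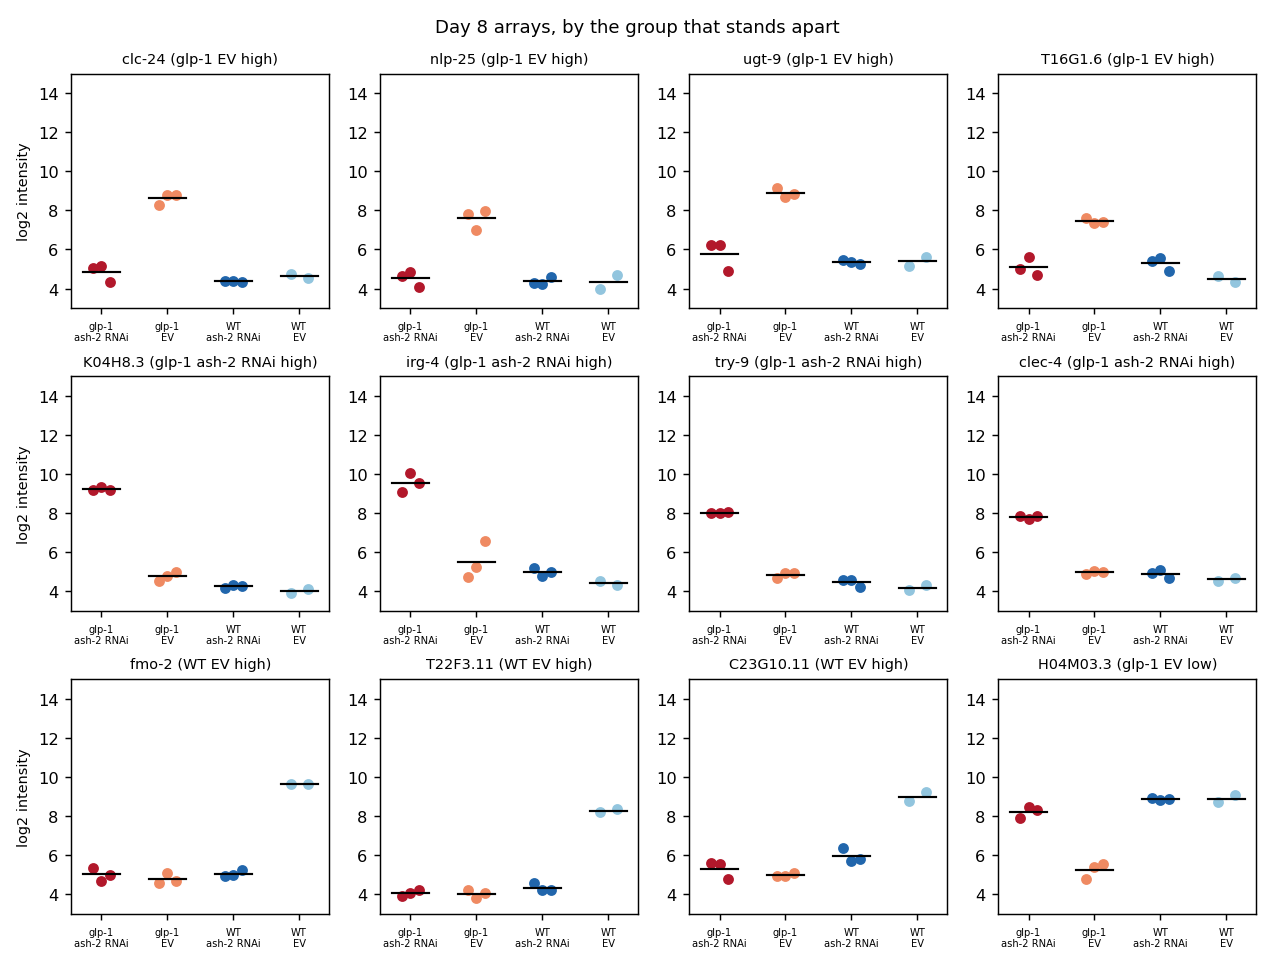
Log2 intensity of 12 genes on the 11 day 8 arrays, with 1 dot per array and a bar at the group mean, and with groups from left to right glp-1 ash-2 RNAi, glp-1 EV, WT ash-2 RNAi and WT EV. The group that stands apart is named above each gene, such as the WT EV arrays at 9.66 for fmo-2.

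Of the called probe sets, 19 changed in opposite directions in the 2 genotypes, and several of them are genes of fatty acid metabolism. These genes were picked for description after their values were seen. The delta-9 desaturase gene fat-5 read 12.57, 12.48 and 12.54 in glp-1 ash-2 RNAi worms, 13.14, 13.19 and 13.18 in glp-1 EV worms, 9.86, 9.90 and 9.89 in WT ash-2 RNAi worms, and 8.65 and 9.08 in WT EV worms. No group overlapped another. It fell by 0.64 in glp-1 and rose by 1.02 in WT, a difference of 1.66 ± 0.17 (limma adjusted p = 0.000706). The related desaturase gene fat-7 stood at 10.77, 10.34 and 10.61 with glp-1 ash-2 RNAi, 11.34, 11.26 and 11.11 with glp-1 EV, 6.63, 6.86 and 6.57 with WT ash-2 RNAi, and 5.93 and 5.65 with WT EV. It too fell in glp-1 and rose in WT, and the difference was 1.56 ± 0.21 (limma adjusted p = 0.00275). The third delta-9 desaturase, fat-6, fell by 0.51 in glp-1 and had a WT change of -0.07, and its difference of 0.44 ± 0.18 passed no test (adjusted p = 0.223).

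The elongase and oxidation genes among the opposite changes ran the other way. The elongase gene elo-5, needed for branched-chain fatty acids, read 12.28, 12.53 and 12.40 in glp-1 ash-2 RNAi worms, 11.49, 11.87 and 11.54 in glp-1 EV worms, 9.37, 9.29 and 9.09 in WT ash-2 RNAi worms, and 10.18 and 9.96 in WT EV worms. It rose by 0.77 in glp-1 and fell by 0.82 in WT, on a shared probe set, with a difference of -1.59 ± 0.20 (limma adjusted p = 0.00204). For hacd-1, a hydroxyacyl-CoA dehydrogenase gene, the arrays stood at 11.88, 11.89 and 11.82 with glp-1 ash-2 RNAi, 11.0045, 11.35 and 11.38 with glp-1 EV, 7.73, 8.03 and 7.61 with WT ash-2 RNAi, and 9.58 and 9.47 with WT EV. Again no group overlapped another, and the difference was -2.35 ± 0.20 (limma adjusted p = 0.000413). Other genes that fell in glp-1 and rose in WT were fmo-3 (2.13), spp-27 (1.92), F19B2.5 (1.67), zip-12 (1.56), cdr-2 (1.42) and the lipid-binding protein gene lbp-6 (1.29, which passed no test with muscle and neuron centring). Those that rose in glp-1 and fell in WT included mfsd-8.1 (-1.99), T24B8.3 (-1.65), set-12 (-1.29), ulp-2 (-1.14) and the linker histone gene hil-3 (-2.34, on a shared probe set). On an unshared probe set of hil-3 the WT change of -1.01 passed no test (limma adjusted p = 0.123).

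**Figure D3:**
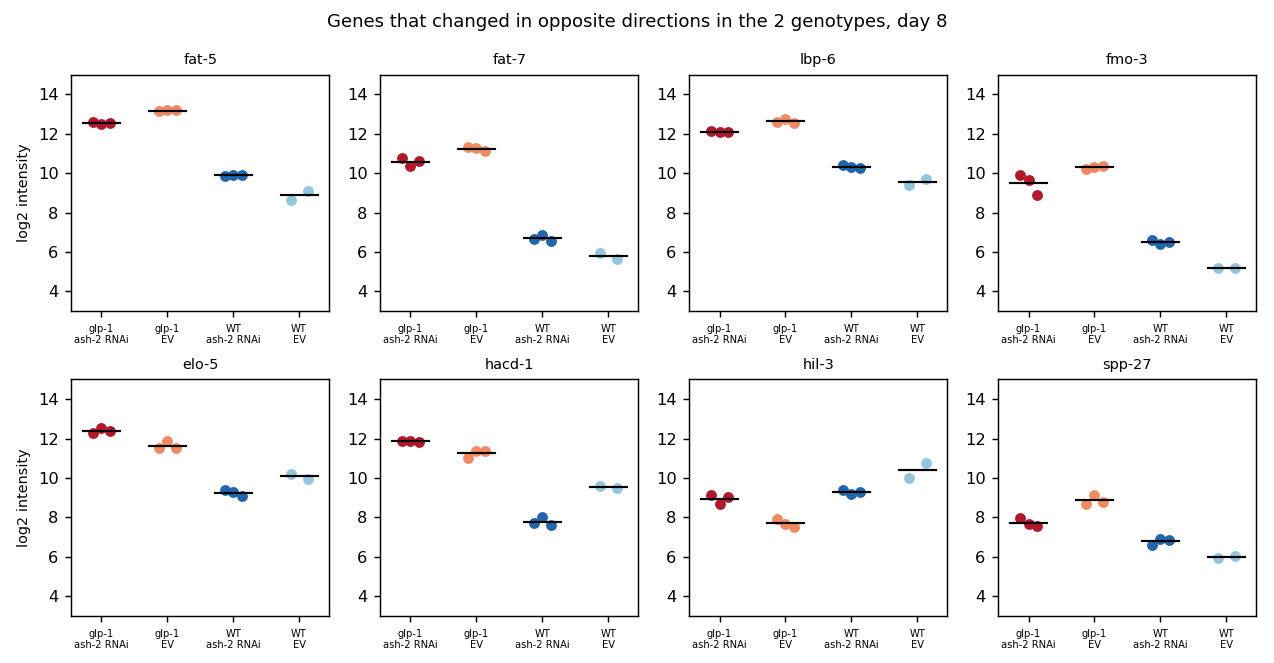
Log2 intensity of 8 genes that changed in opposite directions in the 2 genotypes, with 1 dot per array and a bar at the group mean, in the order glp-1 ash-2 RNAi, glp-1 EV, WT ash-2 RNAi and WT EV. For fat-5 the glp-1 pair steps up from ash-2 RNAi to EV and the WT pair steps down, and for hacd-1 the steps are the other way round.

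Gene lists were read by counts, with the brightest probe set per gene. On that basis 4.33% of 17118 genes were called, 2.59% higher and 1.74% lower, with a median difference of -0.03 over all genes. Fatty acid desaturases and elongases had 6 of 15 members called, 2 higher and 4 lower, with a list median of -0.42. Besides fat-5, fat-7 and elo-5, the elongase genes elo-2 (-1.51 ± 0.30) and elo-6 (-0.999 ± 0.203) and the desaturase gene fat-2 (-0.67 ± 0.15) were lower. The count was 3 without WT ash-2 RNAi 2 or WT ash-2 RNAi 3. The calls of elo-2 and elo-6 were lost without either of these arrays or WT EV 2, that of elo-6 also without glp-1 ash-2 RNAi 2, and that of fat-2 without any one of 10 arrays.

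Of 80 genes for fat breakdown and the glyoxylate cycle, 11 were called, 6 higher and 5 lower, with a list median of -0.01. The lysosomal lipase gene lipl-4, a gene known for its part in the long life of germline-less worms, read 4.96, 4.56 and 4.36 in glp-1 ash-2 RNAi worms, 6.63, 6.58 and 6.34 in glp-1 EV worms, 4.11, 3.70 and 4.03 in WT ash-2 RNAi worms, and 4.004 and 3.993 in WT EV worms. The glp-1 EV arrays alone were high, and the difference was 1.83 ± 0.25 (limma adjusted p = 0.00275). The lipid-binding protein genes lbp-5 (1.00), lbp-6 (1.29) and lbp-7 (1.82) were all higher, while atgl-1 was lower.

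The list of DAF-16 targets and germline-less longevity genes had 9 of 33 members called, 5 higher and 4 lower, with a median of 0.08 that turned to -0.27 with muscle and neuron centring. The count was 4 with that centring and 3 with shared probe sets left out. The ferritin gene ftn-1 was higher (1.25 ± 0.19, not called with that centring). The small heat shock gene hsp-12.6 was lower (-2.44 ± 0.46), at 9.18, 9.01 and 7.94 in glp-1 ash-2 RNAi worms, 5.19, 5.98 and 6.05 in glp-1 EV worms, 5.71, 5.54 and 5.60 in WT ash-2 RNAi worms, and 4.96 and 5.21 in WT EV worms. So members of the list known to be raised in long-lived worms moved both ways in glp-1 with ash-2 RNAi. The count was 2 without WT EV 2, which also ended the hsp-12.6 call, 4 without WT ash-2 RNAi 1 or 2, and 5 without WT ash-2 RNAi 3 or glp-1 ash-2 RNAi 2.

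Detoxification genes were called most often in number, 40 of 203, with 34 higher and 6 lower and a median of 0.26 that turned to -0.10 with muscle and neuron centring, where 24 were called. All 14 called UDP-glucuronosyltransferase genes, of 64 measured, were higher. Of 73 cytochrome P450 genes 13 were higher and 4 lower. The P450 gene cyp-34A2 read 5.04, 5.39 and 4.82 in glp-1 ash-2 RNAi worms, 8.52, 8.14 and 7.92 in glp-1 EV worms, 4.13, 4.50 and 4.36 in WT ash-2 RNAi worms, and 4.74 and 4.69 in WT EV worms. Its glp-1 EV arrays did not overlap the rest, and the difference was 2.72 ± 0.27 (limma adjusted p = 0.000706). The glutathione S-transferase gene gst-6 was also higher (1.73 ± 0.18). Within glp-1, 52 genes of the list fell and 22 rose, against 7.63% and 7.18% of all probe sets. Within WT 1 fell and 14 rose, against 0.891% and 0.577%. The count was 22 without WT EV 2, 25 without WT ash-2 RNAi 1 and 26 without WT ash-2 RNAi 2.

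Lysozymes, saposins and antimicrobial peptides had 11 of 68 members called, 10 higher and 1 lower (irg-4), with a median of 0.52, which was 0.16 with muscle and neuron centring. The invertebrate-type lysozyme gene ilys-3 read 10.55, 10.17 and 10.21 in glp-1 ash-2 RNAi worms, 11.93, 12.19 and 12.42 in glp-1 EV worms, 7.32, 7.97 and 7.55 in WT ash-2 RNAi worms, and 6.946 and 6.996 in WT EV worms. No group overlapped another, and the difference was 2.51 ± 0.27 (limma adjusted p = 0.000839). The lysozyme gene lys-10 had its larger change in WT. It stood at 9.29, 9.23 and 8.61 with glp-1 ash-2 RNAi, 9.98, 10.05 and 9.33 with glp-1 EV, 7.81, 7.96 and 7.47 with WT ash-2 RNAi, and 5.504 and 5.598 with WT EV. It rose by 2.195 in WT and had a glp-1 change of -0.74 (adjusted p = 0.0514), a difference of 2.94 ± 0.34 (limma adjusted p = 0.00126). The list count was 7 without WT EV 1 or WT ash-2 RNAi 1, and 6 without WT ash-2 RNAi 2, WT ash-2 RNAi 3 or glp-1 ash-2 RNAi 2.

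Of 220 C-type lectin genes 12 were called, a share of 5.45% near the 4.33% of all genes, with 7 higher, 5 lower and a median of -0.04. The count was 7 with muscle and neuron centring and 7 with shared probe sets left out. The lectin gene clec-4 was among the lower, at 7.86, 7.73 and 7.86 in glp-1 ash-2 RNAi worms, 4.90, 5.07 and 4.98 in glp-1 EV worms, 4.92, 5.08 and 4.66 in WT ash-2 RNAi worms, and 4.56 and 4.67 in WT EV worms. Its neighbour in name clec-5 was higher (2.27 ± 0.23), at 8.15, 8.24 and 7.99 with glp-1 ash-2 RNAi, 11.42, 11.54 and 11.26 with glp-1 EV, 6.14, 6.59 and 5.99 with WT ash-2 RNAi, and 7.28 and 7.22 with WT EV. It fell in both genotypes, and by more in glp-1. The count was 5 without WT EV 2, 6 without WT ash-2 RNAi 1 and 7 without WT ash-2 RNAi 2.

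Histone genes were called in 1 direction. Of 35 measured, 8 were lower and 0 higher, with a median of -0.50. With ash-2 RNAi 10 rose in glp-1 and 2 fell in WT, against 7.18% and 0.891% of all probe sets. The linker histone gene hil-3 read 9.12, 8.69 and 9.04 in glp-1 ash-2 RNAi worms, 7.941, 7.661 and 7.501 in glp-1 EV worms, 9.395, 9.161 and 9.311 in WT ash-2 RNAi worms, and 9.996 and 10.760 in WT EV worms. The glp-1 ash-2 RNAi arrays lay below but near the WT ash-2 RNAi arrays, while the EV arrays of the 2 genotypes lay far apart. The difference was -2.34 ± 0.30 (limma adjusted p = 0.00213). The H1 genes hil-2 (-2.22 ± 0.37) and his-24 (-1.41 ± 0.22) and the core histone gene his-62 (-1.75 ± 0.22) were lower too. Histone probe sets are mostly shared between near-identical genes, so a gene named on one is uncertain. With shared probe sets left out, which dropped hil-3 among others, 2 were called and the median was -0.086. An unshared probe set of hil-3 was also called (-2.33 ± 0.36, limma adjusted p = 0.00567), and its call was kept whichever array was left out. The count was 5 without WT EV 2, any 1 WT ash-2 RNAi array, glp-1 EV 1 or 2, or glp-1 ash-2 RNAi 1 or 2.

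DNA replication genes had 3 of 32 called (9.38%), all lower, with a median of -0.41, and 1 was called with shared probe sets left out. The sliding clamp gene pcn-1 read 5.90, 5.70 and 6.35 in glp-1 ash-2 RNAi worms, 4.95, 4.95 and 5.26 in glp-1 EV worms, 12.13, 12.11 and 12.04 in WT ash-2 RNAi worms, and 12.12 and 12.40 in WT EV worms. It rose by 0.93 in glp-1 but stayed over 5 units below every WT array. The helicase subunit gene mcm-7 (-1.28 ± 0.30) and the clamp loader gene rfc-2 (-0.83 ± 0.20) were lower too, and their glp-1 arrays also lay below every WT array. The count was 0 without WT ash-2 RNAi 1 or 2, and 1 without any other array except glp-1 ash-2 RNAi 1 and 2. Other germline lists lay near the 4.33% of all genes. Germline proliferation and meiosis had 2 of 39 called (gld-1 at -1.15 and lag-1 at -0.90, 5.13%), and P granule and germline RNA genes 2 of 37 (oma-2 at -1.76 and nos-2 at 1.00, 5.41%). These 4 genes fall outside the naming rule and were chosen after their values were seen. With muscle and neuron centring 1 of the 39 was called. With shared probe sets left out, 0 of the P granule members that remained were called, and oma-2 was among those dropped. An unshared probe set of oma-2 was itself called, at -1.05, whichever array was left out. The oocyte maturation gene oma-2 read 7.27, 7.13 and 7.26 with glp-1 ash-2 RNAi, 5.196, 5.603 and 5.587 with glp-1 EV, 12.37, 12.46 and 12.44 with WT ash-2 RNAi, and 12.37 and 12.47 with WT EV. The mean level of the 10 germline markers, which include gld-1 and oma-2, was higher on each glp-1 ash-2 RNAi array than on each glp-1 EV array. The markers moved unevenly in glp-1, with a median change of 0.39 and a range from -0.29 (oma-1) to 1.76 (oma-2). For him-3 and htp-3 the change was -0.02 and -0.08. The part of this level in these differences was not tested. The calls of gld-1, lag-1 and nos-2 each failed when WT EV 1, or array 1 or 2 of WT ash-2 RNAi, was left out, among other arrays, and that of oma-2 was kept whichever array was left out.

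Among 15 H3K4 methylation genes only ash-2 was called. The others lay between -0.52 (lsd-1, a histone demethylase gene) and 0.27 (amx-1), with set-2, which encodes the main H3K4 methyltransferase, at -0.35 and wdr-5.1 at -0.21. None of the 5 measured yolk protein genes was called in limma's fit, with differences from -0.42 (vit-4) to 0.08 (vit-1). Intestine genes had 4 of 30 called, 3 higher (ges-1, ifb-2 and nhx-2) and the cathepsin B gene cpr-1 lower. Of the 30, 16 fell in glp-1 and 5 in WT, against 7.63% and 0.891% of all probe sets. The intestine count was 0 without WT EV 2 and 2 without WT ash-2 RNAi 2, and with muscle and neuron centring 1 was called and the list median of 0.32 became -0.04. Respiratory chain genes rose in glp-1 at 25 of 49 members and in WT at 0, against 7.18% and 0.577% of all probe sets. The test of the difference was passed by 2 (4.08%), near the 4.33% of all genes, with a list median of -0.27. That count was 0 without WT EV 2, any 1 WT ash-2 RNAi array, glp-1 EV 1 or 2, or glp-1 ash-2 RNAi 1 or 2. It was 1 without glp-1 EV 3 or glp-1 ash-2 RNAi 3. No proteasome gene of 33 and 1 cytosolic ribosomal protein gene of 75 was called.

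**Figure D4:**
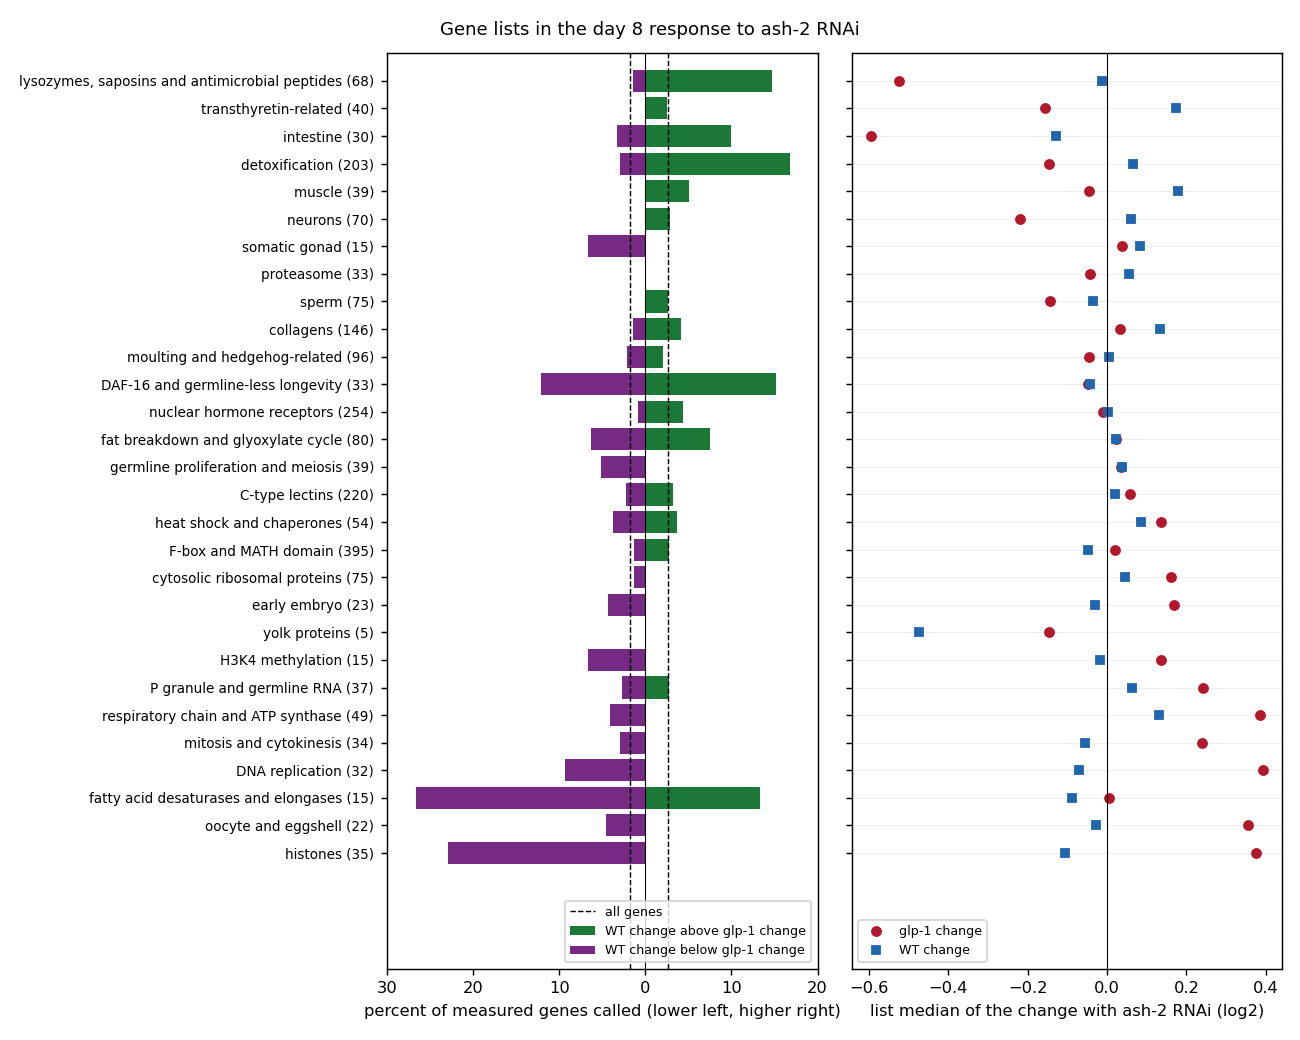
Left, the percent of each list's measured genes (number in brackets) called in the interaction, lower to the left and higher to the right, with dashed lines at the 2.59% higher and 1.74% lower of all genes. Right, the list medians of the log2 change with ash-2 RNAi in glp-1 (circles) and in WT (squares), which spread more widely in glp-1.

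The same measure was taken on the 12 L3 arrays of the series. At L3 limma called 0 of 22548 probe sets (0%), with a smallest adjusted p of 0.369 and 1859 at an unadjusted p under 0.05, against 902 and 3973 on day 8. The L3 count was 62 without L3 glp-1 ash-2 RNAi 1 and 11 without L3 glp-1 ash-2 RNAi 2. The day 8 difference minus the L3 difference was called at 740 probe sets (3.28%), 390 higher (1.73%) and 350 lower (1.55%). Of the 902 probe sets called on day 8, 601 were among them, 502 had the same sign at L3, and the median size of the difference was 1.25 on day 8 and 0.129 at L3. The 902 were chosen by their day 8 difference, so a larger size on day 8 follows in part from that choice. Over all probe sets the SD of the difference was 0.497 on day 8 and 0.225 at L3. The share with the same sign was not taken over all probe sets. For fmo-2 the difference was -4.84 on day 8 and 0.10 at L3, and for fat-5 it was 1.66 and 0.57. The L3 group means of fmo-2 lay between 4.92 and 5.35, below the L3 array medians of 5.72 to 5.91. The age test was passed by fat-7 (2.04, adjusted p = 0.000592) and not by fat-5 (1.09, adjusted p = 0.067) in limma's fit of all arrays.

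**Figure D5:**
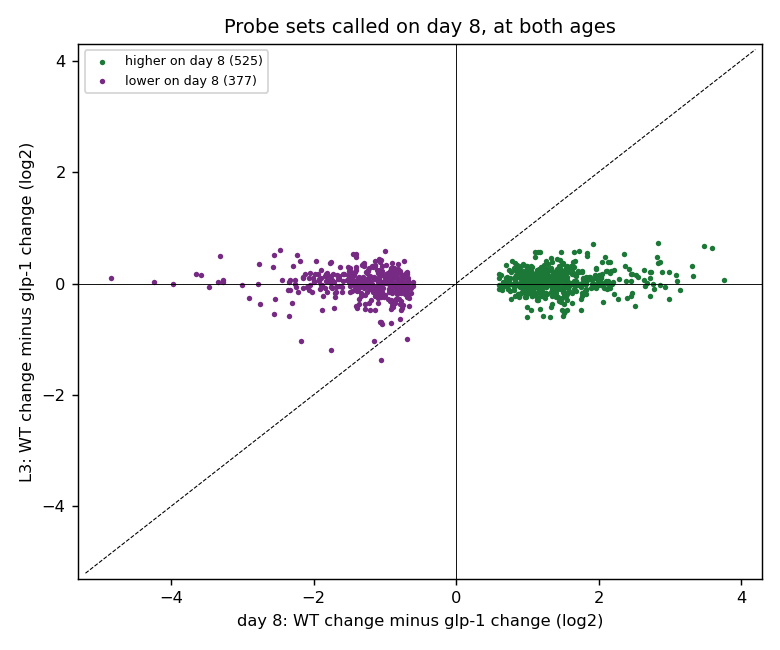
The difference between the genotypes' changes (WT minus glp-1, log2) on day 8 (horizontal axis) and at L3 (vertical axis) for the 902 probe sets called on day 8, with the dashed line marking equal differences. The points spread from -4.84 to 3.77 on day 8 and from -1.38 to 0.73 at L3, where 867 of the 902 were under 0.5 in size. They were chosen by their day 8 difference, and the SD of the L3 difference over all probe sets was 0.225.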

How the data were processed

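RNA of whole worms was hybridised to 1 array per sample. Each deposited value is a log2 intensity of 1 probe set, and the submitters' processing notes name RMA as the authors' tool. The sources used here give neither its version nor whether all arrays were normalized together. Values were used as deposited, with 6 empty cells at 4 probe sets on day 8. Of 22548 probe sets 20766 name 1 gene, 887 several and 895 none, by the platform annotation with symbols updated from the reference gene table. The 6711 probe sets ending in _s_at or _x_at are called shared. Where they were left out, a gene whose brightest probe set is shared was dropped from its list.

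One mean per group was fitted to the 11 day 8 arrays with limma 3.58.1 in R 4.3.3 (default empirical Bayes settings, two-sided), and the L3 arrays apart. The difference between ages alone came from a fit of the whole series. Benjamini-Hochberg adjustment ran over the full table, with calls under an adjusted p of 0.05. Errors with ± are standard errors. The steps were tested on simulated data.

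Genes are named by rule: ash-2, the 12 largest differences each way with all array pairs apart, and the 4 called members with the smallest p of each list with at least 3 called. Members, lists and rule were chosen with earlier results of these data known. Alternatives were other scalings, filters, fold minimums, variance settings, array weights, a replicate block, all arrays in 1 fit and each array left out. The number of arrays limits the precision.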

Additional observations from a re-analysis of the deposited data

Results flagged for a closer look

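The difference between the genotypes' responses to ash-2 RNAi was itself tested between ages, as the day 8 difference minus the L3 difference, in limma's fit of all 23 arrays. It passed at 740 probe sets. On the higher side the 4 largest were R07C12.1 (3.70, adjusted p = 0.00277), drd-10 (3.27, adjusted p = 0.0164), T16G1.6 (3.27, adjusted p = 7.4e-05) and F57H12.6 (3.19, adjusted p = 0.00327). On the lower side they were fmo-2 (-4.94, adjusted p = 3.25e-07), K04H8.3 (-4.27, adjusted p = 1.31e-08), T22F3.11 (-3.96, adjusted p = 1.31e-07) and irg-4 (-3.40, adjusted p = 0.0029). For each of the 8 the L3 difference was under 0.3 in size. In every L3 group the means of R07C12.1, drd-10, T16G1.6, fmo-2, K04H8.3 and T22F3.11 lay below the L3 array medians. A difference at L3 could hardly show for these genes. F57H12.6 (9.14 to 10.77) and irg-4 (8.95 to 10.31) lay well above those medians. Day 8 and L3 arrays differ in median level, 4.89 to 5.01 on day 8 and 5.72 to 5.91 at L3. An offset equal on all arrays of an age cancels in a difference of differences. The part of any offset that varies with the level of a probe set was not tested.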

How the results depend on the processing

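The 902 calls of the day 8 interaction became 2465 with all 23 arrays in 1 fit, 1257 with array weights (within 1.5 times) and 693 with replicate number as a block. Leaving out 1 array gave 385 to 960, and 289 of the 902 stayed called whichever array was left out, with 0 changes of sign. The 3339 calls within glp-1 became 2108 without shared probe sets, 981 at 2-fold or more and 5296 with all arrays in 1 fit, and 2440 to 3313 without 1 array. The 331 within WT became 207 without shared probe sets, 199 at 2-fold or more, 548 with array weights, 215 with the replicate block, 801 with all arrays in 1 fit, and 128 to 413 without 1 array. The L3 count of 0 ran from 0 to 62. The 740 calls between ages became 460 with muscle and neuron centring, 484 without shared probe sets, and 531 to 1004 without 1 array.

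The labels do not say whether replicate numbers pair the samples. Of 15 same-number pairs 3 correlated over 0.1, with a median of -0.026. Deviations within groups of 2 or 3 arrays are tied to each other, so these correlations cannot decide it. Centring on muscle and neuron genes turned the list medians of sperm (-0.26), somatic gonad (-0.20), DAF-16 targets (-0.27), detoxification (-0.098), collagens (-0.27), moulting (-0.27), muscle (-0.12), neurons (-0.12), intestine (-0.036), proteasome (-0.25) and nuclear hormone receptors (-0.35). These are not separate reversals. The centring moves all values of an array alike, so every list median shifted down with the median over all probe sets, from -0.03 to -0.38. The muscle and neuron lists were centred on themselves. Median centring turned nuclear hormone receptors (-0.0066), and leaving out shared probe sets turned somatic gonad (-0.012) and collagens (-0.0017). Without 1 array, medians that changed sign ranged over -0.069 to 0.016 (fat breakdown), -0.21 to 0.19 (germline proliferation), -0.010 to 0.091 (moulting), -0.012 to 0.048 (nuclear hormone receptors), -0.0026 to 0.13 (sperm) and -0.56 to 0.30 (yolk). The causes were not tested. Among genes named by rule none reversed.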

Other observations

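Among larger families outside the pathways above, the share of genes called lay near the 4.33% of all genes. F-box and MATH domain genes, of which many encode substrate adaptors of ubiquitin ligases, had 16 of 395 called (4.05%), 11 higher and 5 lower, with a list median of -0.08. The F-box gene fbxa-105 stood at 8.32, 8.13 and 8.13 in glp-1 ash-2 RNAi worms, 10.46, 10.26 and 9.92 in glp-1 EV worms, 6.30, 6.53 and 6.40 in WT ash-2 RNAi worms, and 5.83 and 5.68 in WT EV worms, a difference of 2.68 ± 0.21 (limma adjusted p = 0.000176). Leaving out 1 array gave 35 for WT EV 1, 26 for glp-1 EV 3, 8 for glp-1 ash-2 RNAi 2, 7 for WT ash-2 RNAi 3, 6 for WT ash-2 RNAi 1, and 5 for WT ash-2 RNAi 2 or WT EV 2. Nuclear hormone receptor genes had 13 of 254 called (5.12%), 11 higher and 2 lower, led by nhr-55 (1.64 ± 0.25). Their median of 0.01 turned to -0.35 with muscle and neuron centring, and 5 were called. The receptor count, likewise, was 4 for WT EV 2, 5 for WT ash-2 RNAi 2, 6 for WT ash-2 RNAi 1 or 3, 7 for glp-1 ash-2 RNAi 2, and 8 for glp-1 EV 1 or 2.

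The insulin-like peptide gene ins-7 and the homeobox genes unc-39 and ceh-32 were picked after their values were seen. For ins-7 the arrays read 8.21, 8.28 and 7.78 with glp-1 ash-2 RNAi, 11.37, 11.19 and 11.06 with glp-1 EV, 6.67, 6.72 and 6.16 with WT ash-2 RNAi, and 7.77 and 7.70 with WT EV. It fell in both genotypes and by more in glp-1 (1.90 ± 0.26, limma adjusted p = 0.00342). The gene unc-39 stood at 4.84, 4.46 and 5.11 with glp-1 ash-2 RNAi, 4.17, 4.60 and 4.14 with glp-1 EV, 5.54, 5.39 and 5.76 with WT ash-2 RNAi, and 6.87 and 7.78 with WT EV, with the 2 WT EV arrays above all others (-2.26 ± 0.36, limma adjusted p = 0.00708). Both probe sets of ceh-32 were also lower (-1.89 ± 0.30 and -2.04 ± 0.36).

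Collagens had 8 of 146 called (5.48%), 6 higher and 2 lower, with 3 called under muscle and neuron centring and 5 with shared probe sets left out, and that count ran from 1 to 12 with 1 array left out. It was 1 without WT EV 1, WT ash-2 RNAi 1 or 2, glp-1 EV 2 or glp-1 ash-2 RNAi 2, it was 2 without WT EV 2 or glp-1 EV 1, and it was 3 without glp-1 EV 3. Moulting and hedgehog-related genes had 4 of 96 called, heat shock genes 4 of 54, sperm genes 2 of 75, muscle 2 of 39, neurons 2 of 70, transthyretin-related genes 1 of 40, oocyte and eggshell genes 1 of 22, mitosis genes 1 of 34, early embryo genes 1 of 23 and somatic gonad genes 1 of 15. By chromosome, the share of genes called, with the brightest probe set per gene, ran from 3.08% on I to 5.01% on X, against 4.33% of all genes.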
